A study of Drosophila melanogaster with 2 samples.

Results

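The odd-skipped family of Drosophila melanogaster comprises 4 genes, odd, sob, drm and bowl, which were chosen by symbol from 18164 annotated genes on the main chromosome arms. All 4 lie on chromosome arm 2L, and regions bound by Engrailed-GFP were read in the gene body and 10 kb on either side, and across the sequence between neighbours of the cluster formed by drm, sob and odd. The embryos were of mixed sex and 0 to 16 h old, from the transgenic strain 3T-GFP with an insertion targeting en, in which a green fluorescent protein (GFP) tag is fused C-terminally to Engrailed. The 2 chromatin immunoprecipitation libraries were biological replicates of 1 group, numbered 1 and 3 in the labels. The description names an anti-GFP antibody, while the antibody label reads en. Whether the fusion adds to or replaces the endogenous en, and which regulatory sequence drives it, was not stated in the labels.

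The family encodes C2H2 zinc-finger transcription factors. odd is a pair-rule gene whose product represses other segmentation genes, engrailed among them, in part of each double-segment unit. Drm, a short protein, binds the cofactor Lines and so releases Bowl from inhibition by Lines, a relay that patterns the foregut, the hindgut and the dorsal epidermis, and the family also acts in leg joint formation downstream of Notch. Engrailed is a homeodomain protein, chiefly a repressor, that marks the posterior compartment of each segment.

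Each region list held 30000 regions for a replicate or for the pool of both, from peaks down to background, and a list of optimal peaks by the irreproducible discovery rate (IDR) procedure held 2226 regions with signals from 65.1 to 1022. The signal of a region is a value the authors deposited, on a scale that the labels do not state, and is used here to rank regions within a list. Read depth is not known from these lists. In whole embryos a peak in few cells and a weaker one in many cannot be told apart. With 1 group, 2 replicates and no control library analysed here, no test across embryos could be made, so the values of the family are set beside the same values over all genes or regions.

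The family loci held 8 IDR peaks: 2 before drm, 2 beyond the 3′ end of sob, 1 between sob and odd, 2 overlapping ones at the bowl promoter and 1 beyond the 3′ end of bowl. Their sequences are shown because they carry the binding described here. Each is 101 bp of the plus strand of the RefSeq release 6 assembly (dm6), with the summit as the middle base, and capitals mark a match to any of 7 motifs searched on both strands.
drm 5922 bp upstream, chr2L:3533275-3533375: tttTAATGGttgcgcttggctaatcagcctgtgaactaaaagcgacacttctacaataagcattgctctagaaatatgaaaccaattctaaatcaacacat
drm 4571 bp upstream, chr2L:3534626-3534726: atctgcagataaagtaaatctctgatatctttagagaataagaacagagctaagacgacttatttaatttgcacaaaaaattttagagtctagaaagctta
sob 4458 bp beyond the 3′ end, chr2L:3573505-3573605: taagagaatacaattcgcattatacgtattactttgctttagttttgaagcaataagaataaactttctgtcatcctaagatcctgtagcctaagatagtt
sob 3837 bp beyond the 3′ end, chr2L:3574126-3574226: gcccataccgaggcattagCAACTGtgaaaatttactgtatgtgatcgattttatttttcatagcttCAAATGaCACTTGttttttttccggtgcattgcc
between sob and odd, chr2L:3594157-3594257: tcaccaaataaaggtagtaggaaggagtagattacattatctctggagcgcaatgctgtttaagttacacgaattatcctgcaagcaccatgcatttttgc
bowl 309 bp upstream, chr2L:3771341-3771441: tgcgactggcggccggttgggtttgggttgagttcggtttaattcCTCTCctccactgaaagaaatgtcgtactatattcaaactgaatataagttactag
bowl 108 bp upstream, chr2L:3771542-3771642: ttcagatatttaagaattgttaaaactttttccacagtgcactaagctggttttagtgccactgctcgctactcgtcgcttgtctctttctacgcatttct
bowl 2320 bp beyond the 3′ end, chr2L:3786391-3786491: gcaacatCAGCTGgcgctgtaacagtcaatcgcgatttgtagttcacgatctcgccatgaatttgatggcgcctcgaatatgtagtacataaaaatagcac

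A further 3 regions missed the IDR list while holding the highest −log10 q of the pooled list (3.82), and they are shown because they were the strongest region in the odd window, the strongest upstream of sob within 10 kb, and the one at the internal promoter of bowl.
odd 3226 bp beyond the 3′ end, chr2L:3600948-3601048: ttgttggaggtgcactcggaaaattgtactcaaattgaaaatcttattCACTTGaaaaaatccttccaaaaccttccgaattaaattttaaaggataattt
lncRNA:TS2 promoter, chr2L:3587493-3587593: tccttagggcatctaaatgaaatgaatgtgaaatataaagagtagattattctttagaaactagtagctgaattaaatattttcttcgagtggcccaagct
bowl internal promoter, chr2L:3779001-3779101: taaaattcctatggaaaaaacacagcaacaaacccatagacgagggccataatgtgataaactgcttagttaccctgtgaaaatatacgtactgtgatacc

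The homeodomain core TAATTA was found at none of the 8 IDR summits within 50 bp, while 7.73% of all 2226 IDR peaks and 6.56% of the other pooled regions held it. The shorter core TAATNG, with N any base, was present in 1 peak, the one 5922 bp before drm, against 23.9% of all IDR peaks. The E-box CANNTG was present in 2 of the 8 peaks, with 3 matches in the sob peak at 3837 bp and 1 in the peak beyond bowl, against 36.4% of all IDR peaks. The stronger bowl promoter peak held the only match to the GAGA factor motif GAGAG, centred 3 bp from its summit and read there on the minus strand, against 10.4% of all IDR peaks. None of the 8 held the forkhead motif TGTTTAC, the GATA motif GATAAG or the BEAF-32 motif CGATA, which stood in 4.72%, 5.84% and 15.2% of all IDR peaks. No 2 of the matches at these summits overlap. With 8 peaks such counts describe the letters in these windows and say nothing of the factors. With 100 bp on either side, TAATTA and GATAAG were still found in 0 of the 8 peaks, while TAATNG was found in 3, GAGAG and CANNTG in 4 each, and TGTTTAC and CGATA in 1 each. The G+C content of the 8 windows ranged from 28.7% to 44.6% with a median of 38.6%, against a median of 33.7% over all IDR peaks.

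bowl, whose product is the effector of the Drm and Lines relay, had the strongest binding of the family, and it was at its main promoter. The gene (FBgn0004893) spans chr2L:3771700-3784121 on the plus strand, with 7 annotated transcripts from 4 transcription start sites (TSS). The stronger peak, chr2L:3771193-3771588, had its summit 309 bp upstream of the first TSS, which 4 transcripts use. Its pooled signal was 159, rank 413 of 30000, and 81.4% of IDR peaks were lower. The overlapping second peak, chr2L:3771455-3771621, had a signal of 107 at rank 937, with its summit 201 bp further on. Replicate 3 separated both, with signals of 96.7 (rank 432) and 66.9 (rank 863). Replicate 1 had a single region there, with its summit at 3771523 between both pooled summits, a signal of 61.0 and rank 468. The 2 bowl promoter peaks thus overlap in 1 stretch, and whether they are 1 site or 2 cannot be told from these lists. The strongest region there ranked within the highest 500 regions of both replicates.

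The rest of the bowl locus was uneven between the replicates. The peak 2320 bp beyond the 3′ end, chr2L:3786243-3786638, lay 703 bp downstream of the start of the pseudogene CR31958. Its summit, at 3786441, was also upstream of the coding gene bark, which starts at 3787167, and 7503 bp from the nearest bowl TSS. The pooled signal of this peak was 66.1, rank 2172, near the lower end of the IDR list. Replicate 1 gave it a signal of 16.5 (rank 6934), and replicate 3 gave it 50.9 (rank 1442). The log2 ratio of replicate 3 to replicate 1 was 1.63, higher than in 96.3% of the 2220 IDR peaks that both replicate lists matched, whose median was 0.60. At the internal TSS of bowl, used by the transcript bowl-RA alone, a pooled region of signal 55.0 (rank 2997) had its summit 113 bp inside the gene. Replicate 3 had it at a signal of 45.6 and rank 1762, and no region of replicate 1 overlapped it. In the intron before it, a region of signal 49.8 (rank 3603, chr2L:3776617-3777012) was likewise present in replicate 3 (38.9, rank 2375) and absent from the replicate 1 list. The promoter peaks of bowl were therefore shared by the replicates, while these regions inside and behind the gene ranked lower in replicate 1 or were not listed there. Not all of the gene differed in this way: the intronic region chr2L:3773116-3773511, with a pooled signal of 42.2 (rank 4979), had 18.7 in replicate 1 (rank 5307) and 25.7 in replicate 3 (rank 5796). Among the highest 2226 regions of a single replicate, the bowl window held 1 summit in replicate 1 and 4 in replicate 3, against 3 in the IDR list.

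**Figure D1:**
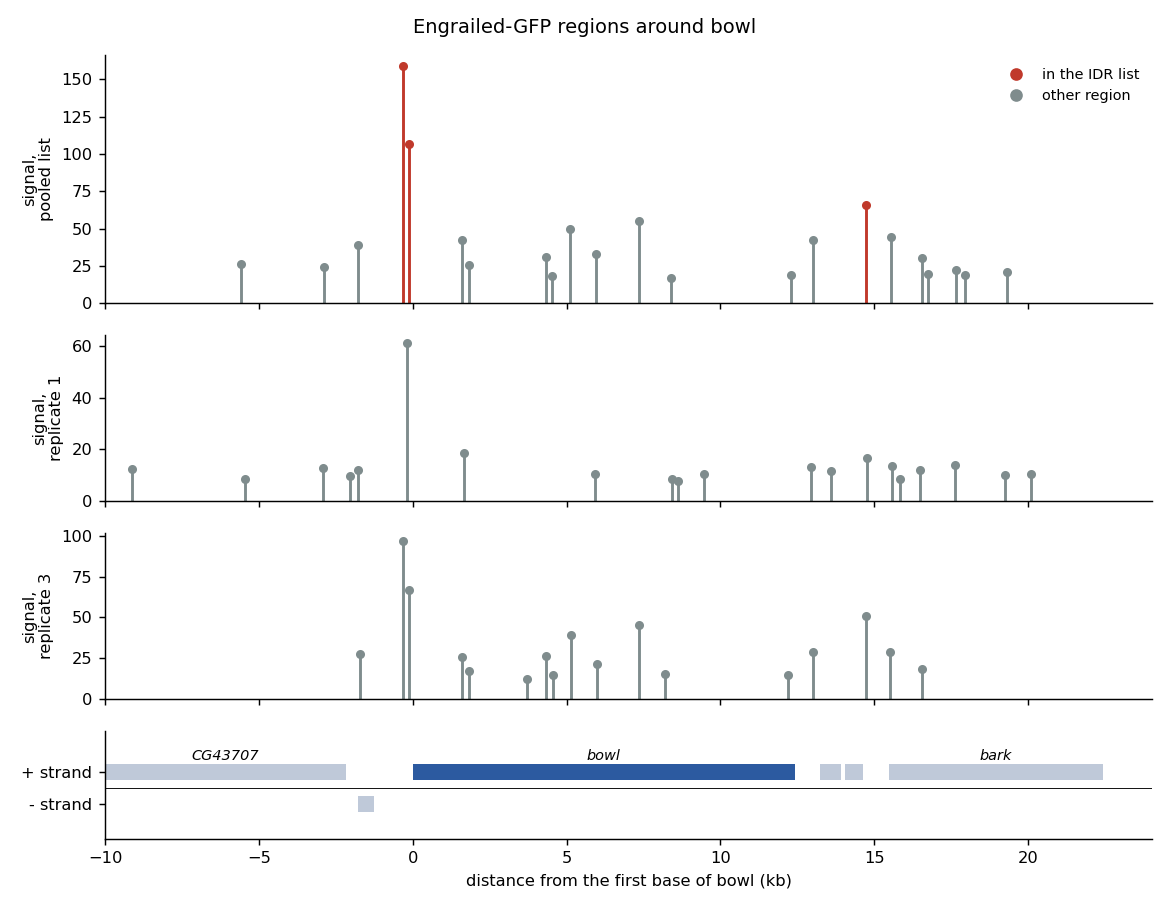
Signal of every region (vertical axis, authors' units, separate scale per panel) against distance from the first base of bowl in kb, for the pooled list, replicate 1 and replicate 3, with genes by strand at the bottom and members of the family in dark blue. The promoter peaks reach 159 in the pool, 61.0 in replicate 1 and 96.7 in replicate 3, and the highest region inside the gene reaches 45.6 in replicate 3 and 18.7 in replicate 1, at different places.

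drm, the upstream gene of the relay, had its binding before the gene and not at its promoters. The gene (FBgn0024244) spans chr2L:3539247-3548423 on the plus strand, with 3 transcripts from 2 TSS. The peak 5922 bp upstream, chr2L:3533127-3533522, had a pooled signal of 111 and rank 865, the highest of the 3 clustered genes with a flank of 10 kb. With a flank of 5 kb this peak was left out, drm had 1 IDR summit, and its highest signal was 66.8, below the 96.5 of sob. Its signal was 44.5 in replicate 1 (rank 938) and 64.5 in replicate 3 (rank 929). The replicates thus ranked it alike. It lay in intergenic sequence beyond the 3′ end of IFT57, an intraflagellar transport gene on the same strand, 2536 bp from the IFT57 TSS. The peak 4571 bp upstream, chr2L:3534478-3534873, had a pooled signal of 66.8 and rank 2136, with the nearest TSS, of lncRNA:CR44308, at 3168 bp. Replicate 1 gave it 27.6 (rank 2365) and replicate 3 gave it 29.6 (rank 4217), so it was among the highest 2226 regions of neither replicate. Counted in either replicate alone, the drm window held 1 summit in place of 2. At the drm promoters a region of signal 27.8 (rank 11630) had its summit 193 bp inside the gene, with ranks 11898 and 19824 in replicates 1 and 3.

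sob, named as the sister of odd and bowl, had 2 peaks beyond its 3′ end and none at its promoter. The gene (FBgn0004892) spans chr2L:3578013-3580769 on the minus strand. The peaks chr2L:3573357-3573752 and chr2L:3573978-3574373 had summits 621 bp apart. The first had a pooled signal of 96.5 (rank 1128), with 38.0 in replicate 1 (rank 1280) and 61.6 in replicate 3 (rank 1009). The second had 87.2 (rank 1334), with 36.3 (rank 1394) and 52.6 (rank 1355). Both stood within the highest 2226 regions of each replicate. The nearest TSS was that of lncRNA:CR43822, 1174 bp from the second summit. At the TSS of sob itself the pooled list had no region within 500 bp, and the nearest pooled summit was 4023 bp away. Replicate 1 alone had a region there, 159 bp upstream, of signal 15.1 and rank 8361. On the other side of sob, a region at the promoter of lncRNA:TS2 reached 55.4 (rank 2953), with 22.2 in replicate 1 (rank 3669) and 32.4 in replicate 3 (rank 3444).

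odd, the pair-rule gene that gave the family its name, had no IDR summit in its window, although a peak stood just past the limit. The gene (FBgn0002985) spans chr2L:3604224-3606756 on the minus strand. The peak chr2L:3594009-3594404 had its summit 10017 bp beyond the 3′ end of odd, 17 bp outside the 10 kb flank, and 13438 bp upstream of sob. The nearest TSS was that of lncRNA:CR43823, 3906 bp away, while the odd TSS was 12549 bp away. The pooled signal of this peak was 97.2 (rank 1119), with 33.2 in replicate 1 (rank 1656) and 60.9 in replicate 3 (rank 1029). When any overlap of the region with the window was counted, odd had 1 peak. The strongest region inside the window, chr2L:3600800-3601195, had a signal of 60.6 and rank 2509, just below the lowest IDR signal of 65.1. It had 20.6 in replicate 1 (rank 4313) and 34.7 in replicate 3 (rank 2980). The next region, 2628 bp beyond the 3′ end with a pooled signal of 34.3, was the higher of the pair in replicate 1, with 21.6 (rank 3913). The replicate 3 region that overlapped it had its summit at 3601261 and a signal of 12.5 (rank 27352). At the odd promoter the higher of 2 pooled regions within 500 bp of the TSS reached 22.1 (rank 18445), below the pooled median of 24.5, and overlapped regions of rank 25809 in replicate 1 and 12497 in replicate 3. Replicate 3 had a higher region 338 bp from the TSS, with a signal of 21.6 and rank 8622. Just past the 500 bp limit, pooled regions at 504 and 548 bp reached 25.0 (rank 14516) and 24.9 (rank 14558), above the pooled median. Replicate 1 listed no region overlapping either.

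**Figure D2:**
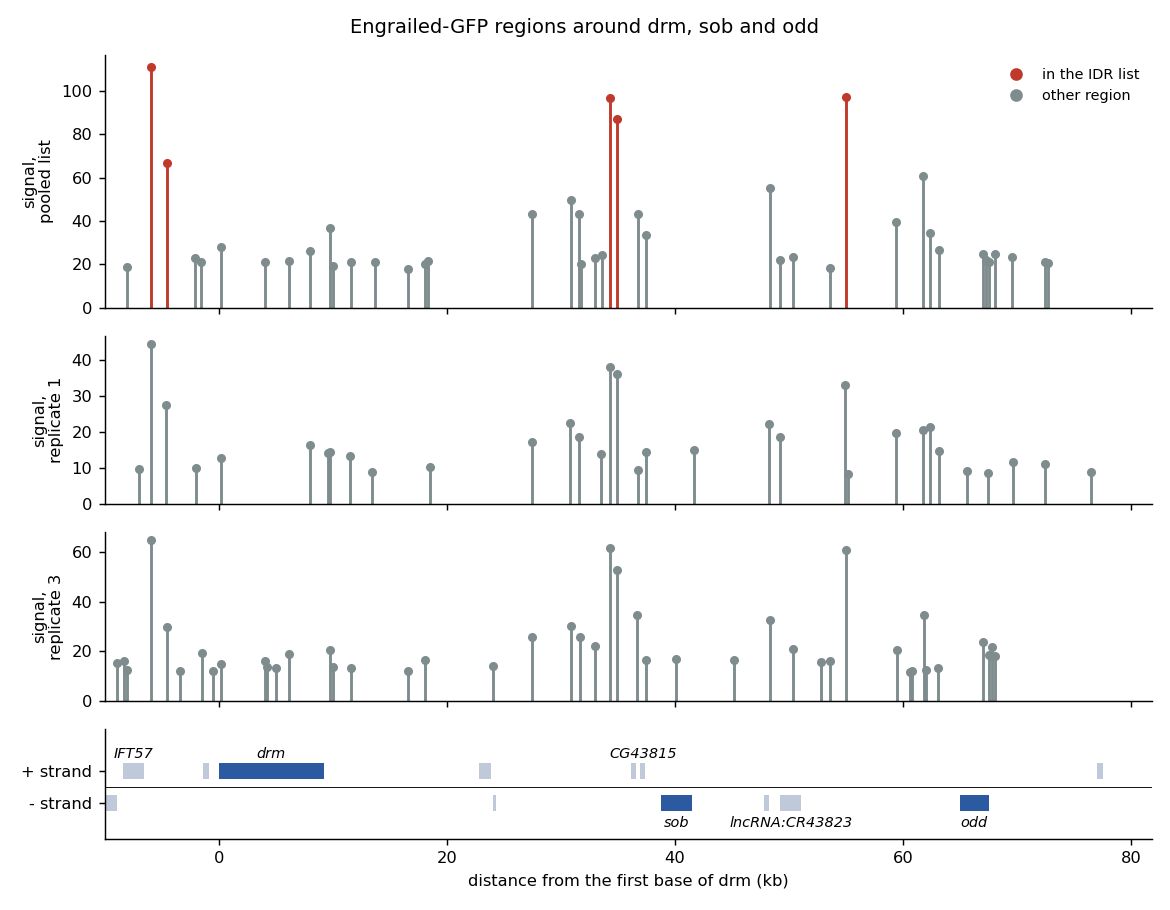
Signal of every region (vertical axis, authors' units, separate scale per panel) against distance from the first base of drm in kb, for the pooled list, replicate 1 and replicate 3, with genes by strand at the bottom and members of the family in dark blue. The 5 IDR peaks, with signals from 66.8 to 111, lie before drm, left of sob and between sob and odd, and none lies within drm, sob or odd.

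All 5 IDR peaks of the cluster were intergenic. They lay in the gaps of 29.6 kb between drm and sob (2 summits), of 23.5 kb between sob and odd (1 summit) and before drm (2 summits). With the peak beyond bowl, 6 of the 8 family peaks were intergenic, while 283 of the 2226 IDR peaks, or 12.7%, were. The loci by definition take in flanks and the gaps of the cluster, so these shares are not matched for intergenic sequence. Of the other 56 pooled regions in the loci, 25 were intergenic, and the same share over all other pooled regions was not computed. At promoters, within 500 bp of a TSS, only bowl had an IDR summit, 1 of 4 members, against a background of 9.68% of 13945 protein-coding genes. A pooled region of any signal was present within 500 bp of a TSS for odd, drm and bowl, 3 of 4, against 51.2% of those genes.

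Of the 4 members, 3 had an IDR summit in the gene body and 10 kb on either side: sob and drm had 2 each and bowl had 3. With a flank of 1 kb, bowl alone kept a summit. The background was 42.1% of 13945 protein-coding genes (16.4% with the flank of 1 kb), and 47.5% of the 4491 genes whose windows were as long as those of the members, from 22533 to 32422 bp. At least 2 summits were held by 15.7% of protein-coding genes and at least 3 by 5.14%. The 3 summits of bowl count the 2 overlapping peaks of its promoter separately. In the highest regions of replicate 1 and of replicate 3 taken alone, the same 3 members had a summit and odd had none, against 41.9% and 41.8% of genes. The highest pooled signal in the window placed odd at 60.6, above 55.1% of protein-coding genes, sob at 96.5 above 73.7%, drm at 111 above 78.2% and bowl at 159 above 88.5%. The median over those genes was 54.6. In these percentages and this median, the 1329 genes with no pooled region in the window count as lowest. Among genes with a region alone, the percentages would be lower and the median higher. Neither these percentages nor those for 2 and 3 summits were matched for window length. It ran from 22533 bp for odd to 32422 bp for bowl. The order bowl, drm, sob, odd was the same by the highest signal in replicate 1 (61.0, 44.5, 38.0 and 21.6) and in replicate 3 (96.7, 64.5, 61.6 and 34.7). drm and sob were close neighbours in it, 111 against 96.5 in the pool, and the difference has no test with 2 replicates. Their order reversed with a flank of 5 kb, to 66.8 for drm against 96.5 for sob.

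**Figure D3:**
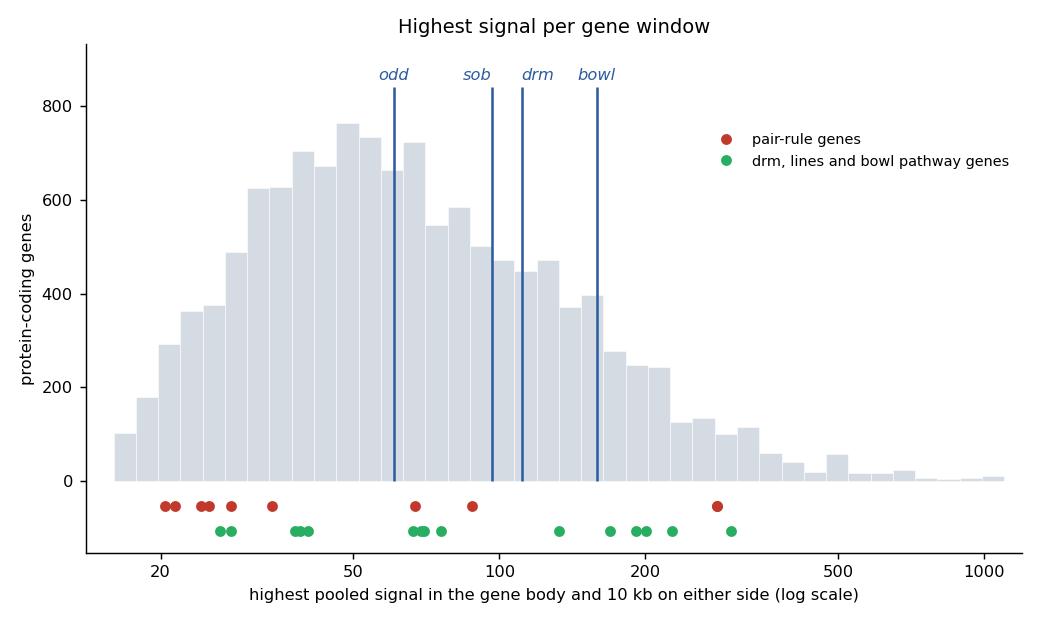
Number of protein-coding genes (vertical axis) by the highest pooled signal in the gene body and 10 kb on either side (log axis, authors' units), with members of the family as blue lines and genes of 2 lists as dots below. odd stands at 60.6 near the middle of the genes, sob and drm at 96.5 and 111, and bowl at 159. The 1329 genes with no pooled region in the window are not drawn.

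The loci held more pooled regions and IDR summits per length than gene windows in general, apart from IDR summits at odd. The cluster, chr2L:3529247-3616756, held 42 pooled regions, 5 of them in the IDR list (11.9%), and the bowl window, chr2L:3761700-3794121, held 22, with 3 in the IDR list (13.6%). The background was 7.42% of the 30000 pooled regions. The 2 overlapping promoter peaks of bowl were counted separately in this share and in the density that follows. Per 100 kb the cluster had 5.71 and bowl 9.25 IDR summits, against 2.43 over the windows of all protein-coding genes, and 0 in the window of odd. Of the 5 IDR peaks of the cluster, 1 was among the 1113 highest of the IDR list. For pooled regions it was 48.0 and 67.9, against 29.8. The window of odd had 48.8 pooled regions per 100 kb, close to those of sob (52.7) and drm (54.8), so odd lacked listed peaks and not regions. The 8 IDR peaks had a median signal of 96.9, against 97.5 over the whole IDR list, and the other 56 regions had a median of 23.7, against 24.5 over the whole pooled list.

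All 8 IDR peaks overlapped a region of both replicates, as did 2220 of all 2226 IDR peaks. Of the other 56 regions 27 did, 13 overlapped a region of replicate 1 only and 16 of replicate 3 only. The same shares over all other pooled regions were not computed. A replicate region can be matched by more than 1 pooled region, as at the bowl promoter. The log2 ratio of replicate 3 to replicate 1 had a median of 0.60 over the 8 peaks, the same as the 0.60 over all IDR peaks, whose standard deviation was 0.56 across peaks. The lists may differ in scale, so this ratio is no difference in binding. The lowest ratio was 0.10, at the drm peak 4571 bp upstream, and the highest was 1.63 at the peak beyond bowl.

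**Figure D4:**
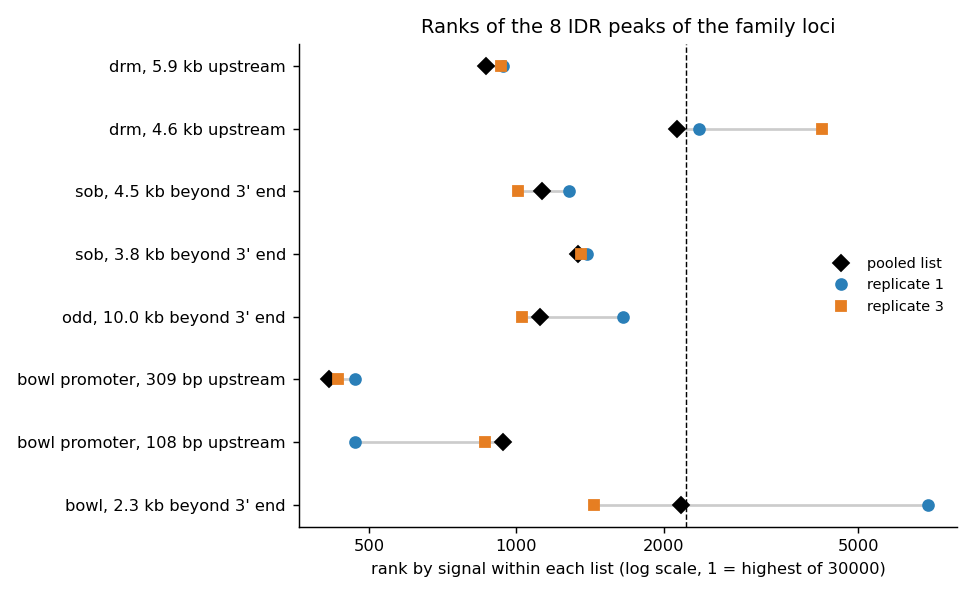
Rank by signal (horizontal log axis, 1 is the highest of 30000) of the 8 IDR peaks in the pooled list, replicate 1 and replicate 3, with a dashed line at rank 2226. The stronger drm peak, both sob peaks, the peak between sob and odd and both bowl promoter peaks lie left of the line in every list, while the weaker drm peak lies right of it in both replicates and the peak beyond bowl in replicate 1.

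Of 10 other pair-rule and segmentation genes outside the family, 4 had an IDR summit in the same window, 40.0% against 42.1%. These were slp1 and slp2, forkhead genes 41554 and 52719 bp beyond bowl on the same arm, which share a peak of signal 281, ftz-f1, the nuclear receptor partner of Ftz (87.8), and opa, a zinc-finger gene (67.0). No summit lay in the windows of eve, ftz, run, prd, gsb or hb, whose highest signals were from 20.4 for run to 34.0 for hb. odd, at 60.6, stood above these 6. Its place below the 4 with a summit was given in advance, since the IDR list equals the 2226 regions of highest pooled signal.

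Of 15 genes that act with drm and bowl or in the same tissues, 10 had an IDR summit (66.7% against 42.1%). The list was chosen with earlier results of these data known, and the part of that choice in this share was not tested. The median highest signal of the 15 genes was 69.9 against 54.6. All 15 had a pooled region, whereas the 54.6 counts genes with none as lowest. The IDR list holds the regions of highest pooled signal, from 65.1 up, so a median above 65.1 follows from the count and adds no second difference. The windows of the 15 genes ran from 23711 to 57558 bp, and the part of window length in this share was not tested. With a flank of 5 kb the count was 6 of 15, against 29.7% of protein-coding genes, and with a flank of 1 kb it was 6 of 15, against 16.4%. gro, encoding the corepressor Groucho, had 5 summits, the highest of 227 at 93 bp from its TSS (rank 219 in replicate 1 and 179 in replicate 3). fkh, a forkhead gene of the gut, had one of 133 at 226 bp from its TSS, and Stat92E, the transcription factor of the JAK/STAT pathway, had one of 66.3 at 309 bp. The highest peaks in the windows of dome, its receptor (300), and hop, its kinase (191), were 14922 and 16564 bp from the TSS of those genes and nearer to others. N (201), dac (169) and Egfr (75.8) had peaks in introns or exons nearer to the TSS of other genes too. The peak of lin, which encodes Lines, had a signal of 69.9 and lay 41 bp from the TSS of CG30349 and 7047 bp from that of lin. It ranked 9221 in replicate 1 and 1378 in replicate 3. The peak of cad (69.0) lay at the promoter of Pomp, with ranks of 13917 and 1394. wg, hh, Ser, upd1 and byn had no summit, and their highest signals were from 26.5 for Ser to 40.3 for wg.

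The protein-coding genes most like each member, by the number of IDR summits and the highest pooled signal among 13945 genes, were partly their own neighbours, which share the same peaks. For drm they were CG8852, IFT57 and Spindly, whose windows overlap that of drm, followed by Apc (2 summits, 111) and CG8319 (2 summits, 111). For sob they were CG43815, which lies within its window, and CG13894, RabX6 and Vti1a (96.5 each) and CG42579 (97.0), with 2 summits each. For bowl they were CG3368, Hmu, bigmax and mrt (159 each) and Hrs (160), with 3 summits each. For odd, with no summit, they were 18w, CG44158, Tollo, tin and CG11095, at signals from 60.5 to 60.6. CG13894, RabX6 and Vti1a had an identical signal on arm 3L (96.5286), as had CG3368, Hmu, bigmax and mrt on arm 3R (159.043). The genes of each group may therefore share 1 peak. The likeness is of these values from 1 pooled list.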

How the data were processed

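The submitters precipitated sonicated chromatin of 200 to 800 bp from whole embryos of 2 biological replicates, per the labels. Per the deposited text descriptions, the authors kept peaks and background together for each replicate and for the pool as input for IDR, made from the alignments and 1 further file whose kind is not stated, and derived the optimal IDR list from these 3 lists. No source used here names the aligner, the caller or the cut-off of the IDR procedure. Column 7 of the deposited lists is a signal value and column 9 a −log10 q-value, which stands at its maximum of 3.82 in 3340 pooled regions. The 2226 IDR peaks equalled the 2226 regions of highest pooled signal.

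Only the 4 deposited lists in build dm6 were used. Gene models were Ensembl release 115 (BDGP6), without transposable elements, and sequence came from the RefSeq release 6 assembly, whose annotation gave the 4 members the same coordinates. A region was placed by its summit, and it was matched to the replicate region of greatest overlap (at least 1 bp). A summit within 500 bp of a TSS counted as promoter, and failing that as coding exon, then other exon, then intron, and otherwise as intergenic. Counting and motif matching were tested on simulated data (200 cases each). Python 3.11.15, pandas 2.3.3, numpy 2.4.6 and matplotlib 3.10.9 were used.

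The members and both gene lists were chosen with earlier results of these data known. The text names the members, their neighbours, genes nearest to a peak, the listed genes, and the 5 protein-coding genes nearest to each member by the summed rank difference of summit count and highest signal. Of the 2 lists, 1 name each was not matched to the annotation and is not analysed here, h of the pair-rule list and Dl of the pathway list. Alternatives were other flanks, overlap in place of summits, stricter and looser lists, each replicate alone and a wider motif window.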

Additional observations from a re-analysis of the deposited data

How the results depend on the processing

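Counts of IDR summits depended on the flank and on the list. With a flank of 5 kb, drm had 1 IDR summit, its highest signal was 66.8 at rank 2136, sob had 4 pooled regions and 6 genes of the pathway list had an IDR summit. With a flank of 1 kb, sob and drm had 0 IDR summits, pooled regions numbered 4 for odd, 0 for sob, 6 for drm and 12 for bowl, the highest signal was 25.0 (rank 14516) for odd and 36.6 (rank 6586) for drm, and IDR summits were found in 2 genes of the pair-rule list and 6 of the pathway list. A highest signal could not be given for sob with that flank, since no region remained. With any overlap of the region, odd had 1 peak, and with all pooled regions at the highest q it had 1. Among the 1113 highest IDR peaks, sob had 0 summits, drm 1 and the cluster 1. Motif windows of 100 bp gave TAATNG in 3 peaks, GAGAG and CANNTG in 4 and TGTTTAC and CGATA in 1. With 1 replicate left out, drm had 1 summit both ways, bowl from 1 to 4, and the rank of the highest region was 2980 to 3913 for odd, 929 to 938 for drm and 432 to 468 for bowl. Where a flank or list was narrower, the smaller count follows from fewer regions, and for the other changes the cause was not tested. Read depth, not known here, limits the regions of low signal. No paired analysis was possible because there is 1 group.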

Other observations

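Promoters of neighbouring genes within the family loci held regions that stayed below the IDR list. They were the promoters of IFT57 (signal 18.6), lncRNA:CR44308 (21.0), CG43815 (43.3), lncRNA:TS2 (55.4), CG43707 (26.1), CG31960 (42.6) and bark (44.4). Those at IFT57 and lncRNA:CR44308 were below the pooled median of 24.5 and unmatched in replicate 1. That at CG43707 was unmatched in replicate 3. The pooled list reaches down to background, and 51.2% of protein-coding genes had a pooled region within 500 bp of a TSS. The IDR peak beyond bowl lay upstream of bark, outside the 500 bp limit. The region at CG43815, 243 bp upstream of its TSS, had a signal of 9.57 in replicate 1 (rank 21491) and 34.5 in replicate 3 (rank 3014), a log2 ratio of 1.85, the highest of the 35 pooled regions of the loci matched in both lists.

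Some regions were in a replicate list and overlapped no pooled region. There were 8 of these in replicate 1, with signals from 8.88 to 15.1, and 11 in replicate 3, with signals from 11.8 to 17.1. The highest of replicate 1 was the region 159 bp upstream of sob, and the highest of replicate 3 lay inside sob, 1411 bp downstream of its TSS.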
